A study of Mus musculus with 24 samples.

Results

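The response to all-trans retinoic acid (ATRA) was examined in mouse embryoid bodies in which Prmt1 had been knocked down (siPRMT1). Its members are the 3 siPRMT1 arrays of ATRA and the 3 siPRMT1 arrays of the vehicle DMSO, 6 of the 24 arrays of the series, chosen by their titles, with 19938 genes measured on each. All cells were of the mouse embryonic stem cell line D3, and the control line carried a scrambled sequence (siSCR). Embryoid bodies, aggregates that form without the cytokine LIF, are labelled as 4 days old, and the exposure to DMSO or to ATRA (5 micromolar, which the labels spell "mikromol") lasted 12 h. The comparison asks which genes ATRA raised or lowered in the knockdown line, and where that response differed from the one in siSCR, which had 3 DMSO and 3 ATRA arrays of its own. Undifferentiated cells and untreated day 4 embryoid bodies of both lines, 3 arrays each, complete the series. The sources used here do not say whether the knockdown was stable or transient, nor how many clones a line held. The arrays are labelled as biological replicates without naming separate cultures, so that p-values measure the spread between these samples. In the main fit the spread of a gene was pooled over all 24 arrays. The siPRMT1 and siSCR responses of a gene therefore have equal standard errors there.

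Retinoic acid is made in cells from vitamin A and binds retinoic acid receptors, which sit on DNA in pairs with retinoid X receptors and exchange corepressors for coactivators once the ligand is bound. Its direct targets include genes for the proteins that take up, bind and break down retinoids, the gene of the receptor RAR beta, and Hox genes near the 3′ ends of their clusters, which set position along the body axis. PRMT1 adds asymmetric dimethyl groups to arginines of histone H4 and other proteins and is known as a cofactor of nuclear receptors.

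Prmt1 itself was measured first. With DMSO its log2 expression values were 10.38, 10.45 and 10.41, and with ATRA they were 10.17, 10.15 and 10.03. The 3 ATRA arrays lay below the 3 DMSO arrays, a fall to 81.4% of the DMSO level (log2 fold change -0.30 ± 0.061, standard error, n = 3 arrays per group, limma adjusted p = 0.00188). In siSCR, Prmt1 stood at mean log2 values of 11.53 with DMSO and 11.56 with ATRA, above the knockdown line in both conditions. Its response differed between the lines by -0.33 ± 0.0865 (limma adjusted p = 0.0396), and by adjusted p = 0.128 when only the 12 arrays of DMSO and ATRA were fitted. The difference was called in 3 of 12 fits without 1 array, with an adjusted p of up to 0.11. The epiblast genes Otx2 (mean log2 level 11.59 with DMSO, 7.84 in undifferentiated siPRMT1) and Fgf5 (10.34 and 7.44) were higher in the embryoid bodies than in the stem cells. These are bulk samples, in which fewer cells of a type and less RNA per cell cannot be told apart.

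The arrays scattered unequally. Among siPRMT1 arrays replicates correlated at 0.998 to 0.999 with DMSO and at 0.997 to 0.999 with ATRA, and the median over genes of the SD between replicates was 0.0626 and 0.0847. In a principal component analysis of all 24 arrays, component 1 (52.2% of the variance) divided the 6 siSCR arrays of DMSO and ATRA from the remaining 18, and their median SDs were 0.118 and 0.137. The labels give no batch, so the difference between these 6 arrays and the others cannot be told apart from line and treatment. Among the 6 siPRMT1 arrays alone, the leading component (63.9% of the variance) separated DMSO, from -19.0 to -12.9, from ATRA, from 13.3 to 21.6. On the next component (23.2%) ATRA replicate 3 (14.9) and DMSO replicate 2 (10.9) lay above the other 4 arrays, the highest of which was at 0.23.

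After 12 h, ATRA had raised 1207 genes (6.05% of those tested) and lowered 1184 (5.94%) at a limma adjusted p under 0.05, called higher or lower below, 2391 (12%) in all. Most of these changes were small: 1916 (80.1%) were under 1.5-fold, and the median size of a called change was 0.37 on the log2 scale. The 3 ATRA arrays lay wholly to one side of the 3 DMSO arrays for 2388 of the called genes, as for 36.4% of all genes. Changes of at least 2-fold were called for 138 genes (0.692%), of which 95 rose and 43 fell. Changes of 4-fold or more numbered 15 rises and 4 falls. The share of higher calls was 50.5%, but 35.1% after each array was centred on its median and 42% after it was also scaled to one SD. Without 1 of the 6 arrays at a time 1737 to 1903 genes were called.

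**Figure D1:**
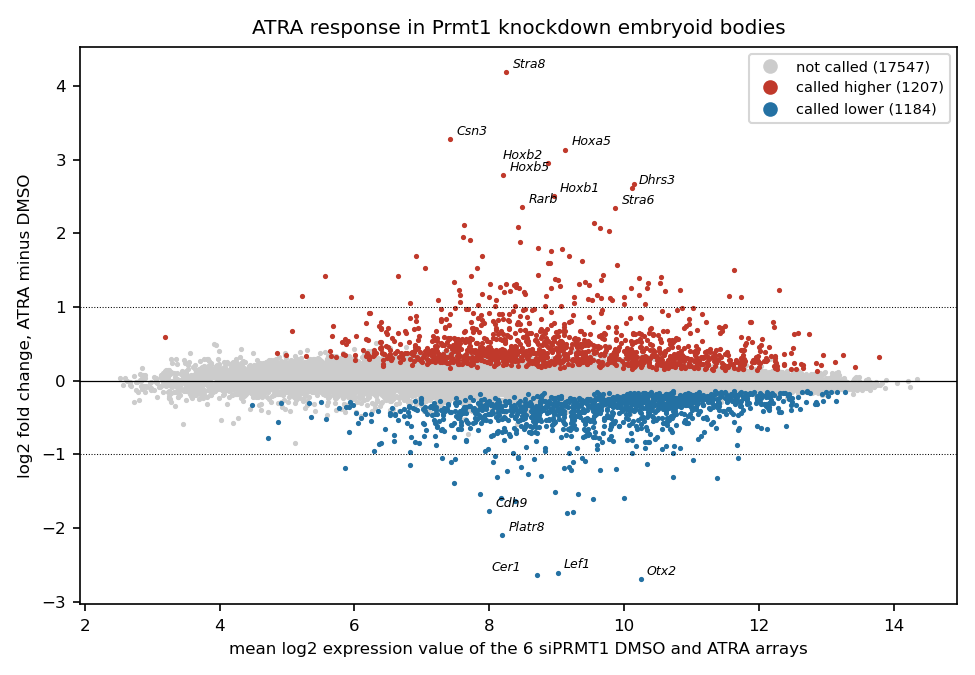
Log2 fold change of ATRA against DMSO in siPRMT1 (vertical axis) against the mean log2 expression value of the 6 arrays (horizontal axis) for 19938 genes, with called genes coloured and dotted lines at 2-fold. The rises reach further than the falls, up to 4.19 for Stra8 against -2.69 for Otx2.

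Stra8, the gene that germ cells need to enter meiosis and that is named for its stimulation by retinoic acid, rose most. Its log2 values were 6.26, 6.11 and 6.10 with DMSO and 10.37, 10.29 and 10.37 with ATRA. All ATRA arrays lay far above all DMSO arrays, an 18.2-fold rise (log2 fold change 4.19 ± 0.137, limma adjusted p = 8.9e-15). In siSCR the rise was 4.07 ± 0.137, and the difference of 0.12 ± 0.193 between the lines was not called (limma adjusted p = 0.821). Csn3, which encodes kappa-casein of milk, came next at 3.28 ± 0.133. The other rises among the 15 largest were of 3 kinds. The Hox genes Hoxa5, Hoxb2, Hoxb5 and Hoxb1 and the retinoid genes Dhrs3, Rarb and Stra6 are described below. Membrane and signalling genes made up most of the others: Aqp3, a water and glycerol channel (2.67 ± 0.078), Gfra1, a receptor for the growth factor GDNF (2.14 ± 0.070), Chrna5, a nicotinic acetylcholine receptor subunit (2.12 ± 0.147), Pmp22, a myelin protein (2.07 ± 0.084), and Tmem229b (2.03 ± 0.072). Calcoco2, an autophagy receptor, rose by 2.08 ± 0.121. All 15 kept their call in each of the 6 fits without 1 siPRMT1 array.

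Several of these genes were not silent before differentiation. In undifferentiated siPRMT1 cells Stra8 stood at a mean log2 value of 8.56, Aqp3 at 10.91, Gfra1 at 9.99 and Pmp22 at 10.66, all above their DMSO means of 6.16, 8.81, 8.48 and 8.60. Pmp22 with ATRA (10.68) lay near its stem cell level, and Stra8 with ATRA (10.34) lay above it. Of the Hox genes, Hoxa5 and Hoxb2 stood at 8.38 and 8.18 in undifferentiated cells against 7.56 and 7.39 with DMSO, while Hoxb1 and Hoxb5 lay closer, at 7.89 and 7.08 against 7.70 and 6.81. With ATRA these 4 genes were at 10.69, 10.35, 10.21 and 9.60, above their stem cell levels.

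**Figure D2:**
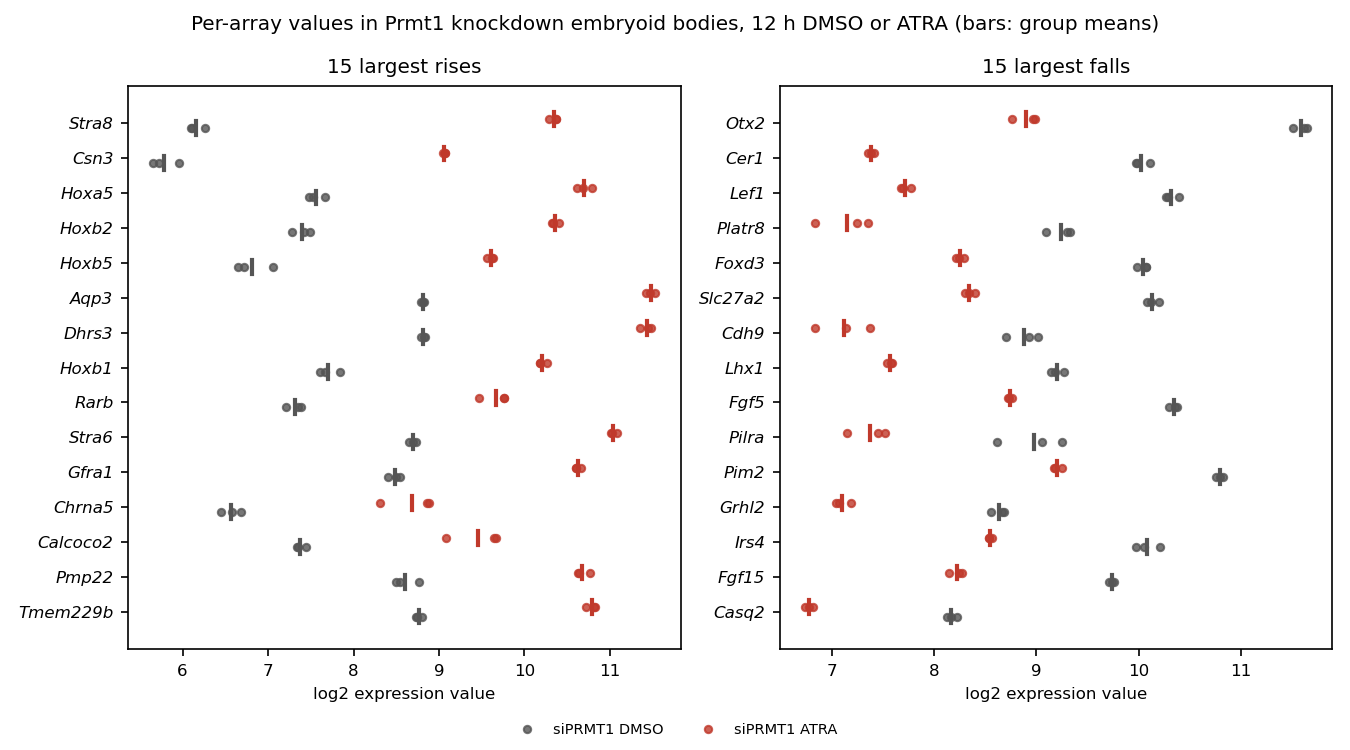
Log2 expression values (horizontal axis) of the 15 largest rises and 15 largest falls in siPRMT1, with 1 point per array, 3 DMSO and 3 ATRA arrays per gene and a bar at each group mean. The 30 genes were chosen among called genes whose groups do not overlap, so the separation of the points follows from the choice. They run from Stra8, at 10.29 to 10.37 with ATRA against 6.10 to 6.26 with DMSO, down to Casq2, at 6.74 to 6.82 against 8.13 to 8.22.

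The regulatory sequence of 2 retinoid genes is shown because both rose and both hold a textbook retinoic acid response element close to the start of transcription. Such an element is a direct repeat of 2 half-sites (AGGTCA or its variants GGGTCA and AGTTCA and also GGTTCA) with any 5 bases between them, called DR5. It was searched on both strands in RefSeq windows of 300 bases (250 before and 50 after a start, GRCm38.p6). Below are the 250 bases before the start of Rarb (chr14:16575477-16575726, minus strand) and of Cyp26a1 (chr19:37697558-37697807, plus strand), 5′ to 3′ along the gene, with the half-sites in capitals. In Rarb the repeat runs along the gene and begins 53 bases before the start. In Cyp26a1 it lies on the opposite strand, so that the half-sites read TGAACT, and begins 32 bases before the start.
Rarb: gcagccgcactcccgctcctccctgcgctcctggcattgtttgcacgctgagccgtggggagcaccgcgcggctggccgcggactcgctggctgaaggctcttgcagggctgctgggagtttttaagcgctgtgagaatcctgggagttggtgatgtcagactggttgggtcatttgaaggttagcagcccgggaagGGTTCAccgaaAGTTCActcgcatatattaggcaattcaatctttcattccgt
Cyp26a1: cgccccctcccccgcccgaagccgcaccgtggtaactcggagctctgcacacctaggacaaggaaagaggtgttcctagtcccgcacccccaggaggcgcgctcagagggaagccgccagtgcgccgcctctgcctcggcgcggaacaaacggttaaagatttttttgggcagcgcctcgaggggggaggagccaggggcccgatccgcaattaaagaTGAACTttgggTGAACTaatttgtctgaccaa

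The DR5 letters were found in 32 of 32851 windows (0.0974%). Of the 15614 measured genes with a window, 11 held them, and 4 of these were called higher: Rarb (2.35), Cyp26a1 (1.51), the platelet chemokine gene Ppbp (0.60) and the embryonic globin gene Hbb-y (0.47), chosen here by the search. The call of Hbb-y held in 1 of 6 fits without 1 array, with an adjusted p of up to 0.234, and was lost after quantile normalization, median centring and scaling to one SD. Syndig1 was called lower (-0.51) and 6 were not called. Of the 15 largest rises 11 had a window, and 1, Rarb, held the DR5 letters. Half-sites 2 bases apart (DR2) were found in 14 measured genes, of which 3 were higher and 1 was lower, and those 1 base apart (DR1) in 38, of which 1 was higher and 1 lower. The shares called higher were 36.4% for DR5, 21.4% for DR2 and 2.63% for DR1, against 6.05% over all genes. Those called lower were 9.09%, 7.14% and 2.63%, against 5.94%. These shares rest on few genes and were not tested. A match is a description of letters, not of binding, and a window without one says nothing of elements farther away.

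Genes that handle retinoids divided into a group that rose at least 2-fold and a group that was not called. Of 14 measured members 5 were higher and 0 lower, and their median log2 fold change was 0.11, against 0.025 over all genes. Over all genes 6.05% were higher and 5.94% lower, the shares to set beside this and every list count below. Dhrs3, which turns retinal back into retinol, had log2 values of 8.79, 8.83 and 8.84 with DMSO and 11.45, 11.48 and 11.36 with ATRA. The groups were far apart, a 6.11-fold rise (2.61 ± 0.062, limma adjusted p = 5.96e-17). Stra6, the receptor for retinol-binding protein, went from 8.65, 8.70 and 8.73 to 11.08, 11.02 and 11.01, without overlap (2.35 ± 0.072). Crabp2, which carries retinoic acid to its receptors, stood at 8.21, 8.18 and 8.18 with DMSO and at 10.10, 9.97 and 9.89 with ATRA (1.79 ± 0.083). The cytochrome that clears retinoic acid, Cyp26a1, was already well expressed with DMSO, at 10.86, 10.84 and 10.93, and reached 12.44, 12.40 and 12.31 (1.51 ± 0.098, limma adjusted p = 4.03e-10). Its relative Cyp26b1 rose from a mean of 7.59 to 8.90 (1.32 ± 0.090). The retinaldehyde dehydrogenases Aldh1a1 (0.01), Aldh1a2 (-0.15) and Aldh1a3 (0.02), which make retinoic acid, and Crabp1 (0.12), Rdh10 (-0.12) and Cyp26c1 (0.10) were not called.

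Among 14 receptors and cofactors 5 were higher and 1 lower (median 0.08). Rarb, the receptor gene whose start is shown above, had log2 values of 7.21, 7.38 and 7.35 with DMSO and 9.76, 9.76 and 9.47 with ATRA. Every ATRA array was over 2 log2 units above every DMSO array, a 5.11-fold rise (2.35 ± 0.079, limma adjusted p = 1.27e-14), with ATRA replicate 3 the lowest of its group. Nrip1, a corepressor that binds liganded receptors, rose by 1.37 ± 0.062, Nr6a1, an orphan receptor of germ cells and early embryos, by 0.65 ± 0.065, and Rara by 0.35 ± 0.061. Rxrg, a retinoid X receptor, fell by 0.50 on the log2 scale (SE 0.083). Rarg was called at 0.22, but in 2 of the 6 fits without 1 array and not after median centring (limma adjusted p = 0.058). The coactivators Ncoa1, Ncoa2 and Ncoa3 (-0.15, 0.07 and -0.14) and Nr2f1 and Nr2f2 (0.13 and 0.06), which retinoic acid is known to induce in other cells, were not called.

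Called Hox genes lay mostly in the HoxA and HoxB clusters. Of the HoxB cluster 8 of 9 measured genes were higher and 0 lower (median 0.90), and of the HoxA cluster 7 of 10 (median 0.57). HoxC had 2 higher of 9 (median 0.12), and HoxD had 0 called of 9 (median 0.08). Without 1 array at a time the HoxB count was 8 each time, HoxA gave 6 or 7 and HoxC 1 or 2, and both called HoxC genes, Hoxc4 and Hoxc5, are among the dimmest 25% of genes. The call of Hoxc5 was also lost after quantile normalization and after scaling to one SD.

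Within HoxB the 3′ genes and Hoxb5 led. Hoxb1, which patterns the hindbrain, had log2 values of 7.66, 7.84 and 7.61 with DMSO and 10.18, 10.18 and 10.27 with ATRA. The groups were over 2 units apart (2.50 ± 0.078, 5.67-fold, limma adjusted p = 4.93e-15). Hoxb2, its neighbour, rose from 7.49, 7.28 and 7.42 to 10.41, 10.32 and 10.33 (2.96 ± 0.115), and Hoxb5 from 6.72, 7.06 and 6.65 to 9.62, 9.63 and 9.56 (2.79 ± 0.112). Between them, Hoxb3 (0.90 ± 0.103) and Hoxb4 (1.53 ± 0.103) rose less. The 5′ genes Hoxb6 (0.48 ± 0.111), Hoxb9 (0.51 ± 0.096) and Hoxb13 (0.67 ± 0.085) rose by under 1 unit, and Hoxb7 at 0.23 was not called. In HoxA the peak was at Hoxa5, from 7.48, 7.53 and 7.67 to 10.68, 10.79 and 10.61 (3.14 ± 0.106, 8.8-fold). On its 3′ side Hoxa2 (1.34 ± 0.120), Hoxa3 (1.95 ± 0.092) and Hoxa4 (1.60 ± 0.097) rose over 2-fold, and on its 5′ side Hoxa6 (0.56 ± 0.059) and Hoxa7 (0.58 ± 0.084) rose by under 1 unit. Hoxa10, Hoxa11 and Hoxa13 (0.16, -0.03 and 0.16) were not called.

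**Figure D3:**
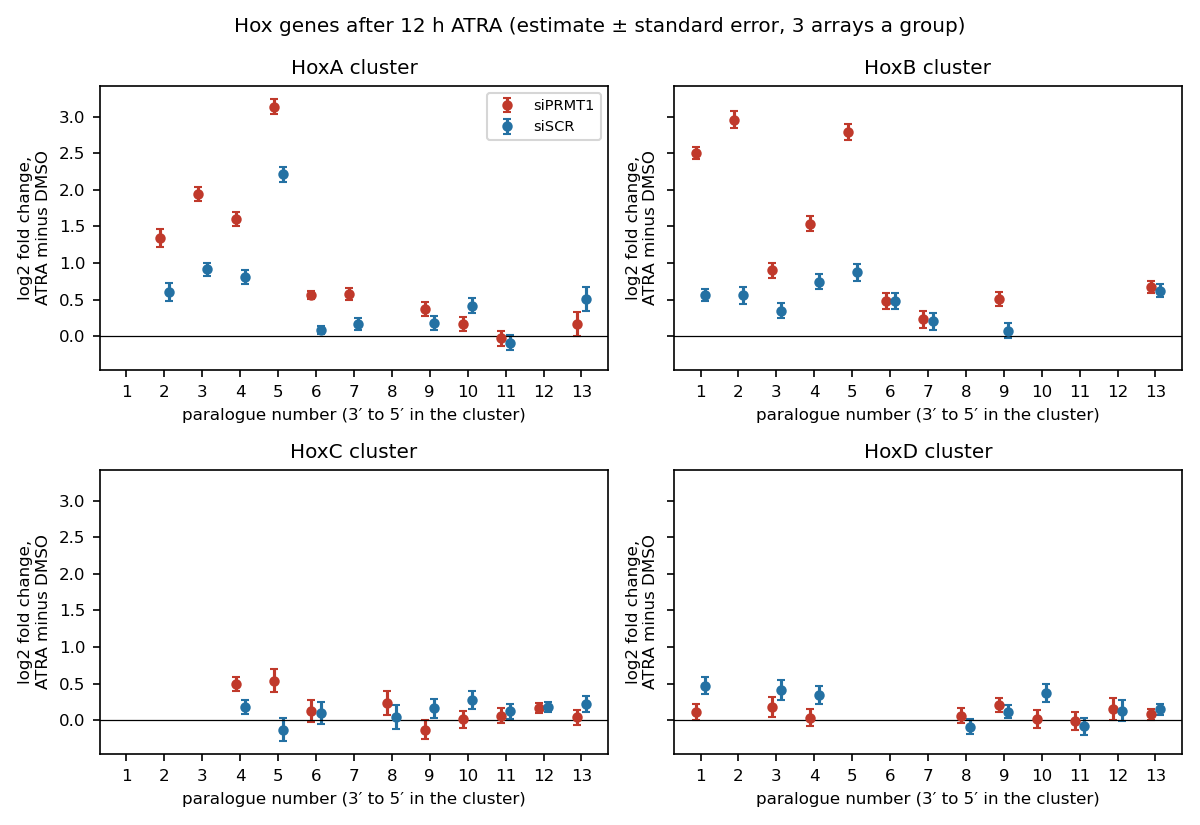
Log2 fold change of ATRA against DMSO (vertical axis, estimate ± standard error, 3 arrays a group) for each measured Hox gene by its paralogue number (horizontal axis), in siPRMT1 and siSCR. In siPRMT1 the rises of over 1 unit are those of Hoxa2, Hoxa3, Hoxa4, Hoxa5, Hoxb1, Hoxb2, Hoxb4 and Hoxb5, while HoxC and HoxD genes stay between -0.13 and 0.54.

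The TALE homeodomain proteins bind DNA together with Hox proteins, and 5 of 8 measured genes of this class were higher and 0 lower (median 0.44). Meis1 had log2 values of 8.14, 8.13 and 8.20 with DMSO and 9.29, 9.20 and 8.87 with ATRA. The groups did not overlap, and ATRA replicate 3 was the nearest to DMSO (0.97 ± 0.096). Meis2 rose by 0.99 ± 0.080, Pknox2 by 0.97 ± 0.112, Pbx2 by 0.58 ± 0.069 and Pbx4 by 0.30 ± 0.070. Pknox1 (-0.10) and Meis3 (-0.06) were not called.

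Of 16 other early retinoid response factors 10 were higher and 1 lower (median 0.55). Cdx1, a caudal gene that passes retinoid signals on to Hox genes, rose from 7.84, 8.07 and 7.83 to 9.28, 9.10 and 8.97 (1.20 ± 0.100), without overlap. Its relatives Cdx2 (0.14) and Cdx4 (-0.20) were not called. Cntfr, the receptor subunit for ciliary neurotrophic factor, rose by 1.13 ± 0.064, and the transcriptional regulators Skida1, Zfp703, Tshz1, Bhlhe40 and Hic1 rose by 0.57 to 0.88. Gbx2, a homeobox gene of the anterior hindbrain, fell by 0.45 on the log2 scale (SE 0.064). Among 14 germ cell and meiosis genes 6 were higher and 0 lower (median 0.27), and beside Stra8 these were Rec8, a meiotic cohesin (0.69 ± 0.068), Meioc (0.67 ± 0.148), Tfap2c (0.55 ± 0.105), Dazl (0.45 ± 0.108) and Dmc1 (0.32 ± 0.092, called in 2 of 6 fits without 1 array and not under any other scaling run). Sycp3 (0.18), Ddx4 (0.16) and Prdm1 (-0.07) were not called.

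Among the falls were genes of the primed epiblast, the state that stem cells pass through as they leave naive pluripotency. Of 12 measured genes 11 were lower and 0 higher (median -1.05), and 9 to 11 were lower without 1 array at a time. The list was chosen with earlier results of these data known. It holds Otx2, Cer1, Lef1, Fgf5 and Grhl2 of the 15 largest falls, so its count is no independent test. Otx2, which marks the epiblast and later the forebrain, fell most of all genes. Its log2 values were 11.64, 11.51 and 11.62 with DMSO and 8.98, 8.96 and 8.76 with ATRA. The groups were over 2 units apart, and ATRA left 15.5% of the DMSO level (-2.69 ± 0.115, limma adjusted p = 6.64e-13). Cer1, a secreted inhibitor of Nodal, BMP and Wnt proteins, went from 9.99, 9.98 and 10.12 to 7.39, 7.41 and 7.36, or 16% (-2.64 ± 0.184). Lef1, a transcription factor of the Wnt pathway, went from 10.27, 10.29 and 10.40 to 7.68, 7.69 and 7.77, or 16.4% (-2.60 ± 0.059, limma adjusted p = 4.51e-17). Neither gene's groups overlapped.

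Fgf5, the growth factor by which the primed epiblast is recognised, fell from 10.38, 10.29 and 10.36 to 8.73, 8.76 and 8.73. The groups lay far apart and each was tight, and 32.9% of the DMSO level was left (-1.60 ± 0.110). Grhl2, a regulator of epithelial genes, fell by 1.54 on the log2 scale (SE 0.096). Dnmt3b, a DNA methyltransferase, fell from 11.54, 11.49 and 11.64 to 10.53, 10.51 and 10.39 (-1.08 ± 0.059), and Car14 fell by 1.02 (SE 0.116). Pou3f1 and Sall2 fell by 0.53 and 0.64, and Sox4 (-0.04) was not called. Among 8 genes of DNA methylation and demethylation 3 were lower and 0 higher: besides Dnmt3b, these were Dnmt3l, a cofactor of the methyltransferases, from 12.00, 12.06 and 12.07 to 10.74, 10.75 and 10.67 (-1.32 ± 0.062), and Dnmt3a (-0.21 ± 0.060, called in 3 of 6 fits without 1 array). Dnmt1 (-0.05), Uhrf1 (-0.10) and Tet1 (-0.13) were not called.

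FGF ligands and feedback genes of the ERK pathway fell as a group in count: 12 of 18 were lower and 1 was higher (median -0.32), and 10 to 12 were lower without 1 array at a time. Besides Fgf5, the ligand Fgf15 fell from 9.74, 9.76 and 9.71 to 8.15, 8.27 and 8.25 (-1.52 ± 0.082), without overlap. Fgf4, the ligand that stem cells themselves secrete, fell by 0.61 on the log2 scale (SE 0.077), and Fgf17 by 0.46. Of the inhibitors that ERK signalling induces, Dusp4 fell by 1.17 (SE 0.096), Spry2 by 0.67 (SE 0.052), Spry4 by 0.42 (SE 0.065) and Il17rd by 0.40 (SE 0.075). Spred2 rose by 0.33 ± 0.073. The commonly used ERK readout Dusp6 (0.07) and the transcription factors Etv1 (-0.12) and Etv4 (-0.08) were not called, while Etv5 fell by 0.30.

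Pluripotency genes fell less, and not all of them. Of 11 core genes 7 were lower and 1 higher (median -0.35), and of 13 naive genes 6 were lower and 1 higher (median -0.13). Pou5f1, the gene of OCT4, had log2 values of 13.15, 13.19 and 13.20 with DMSO and 13.08, 13.10 and 13.09 with ATRA. The ATRA arrays lay below the DMSO arrays by little, and the change was not called (-0.09 ± 0.041, limma adjusted p = 0.196). Nanog (0.03), Klf2 (0.04) and Klf4 (-0.12) were not called either. Sox2 fell by 0.42 (SE 0.073), Zscan10 by 0.60 (SE 0.060), Lin28a by 0.43 (SE 0.067), Nr5a2 by 0.98 (SE 0.055), Tcl1 by 0.67 (SE 0.081), Prdm14 by 0.61 (SE 0.069) and Zfp42 by 0.58 (SE 0.054). Tbx3, a T-box factor of naive cells and of the extraembryonic endoderm, rose by 0.65 ± 0.064. Foxd3, a stem cell factor outside these lists and among the largest falls, went from 9.98, 10.07 and 10.08 to 8.24, 8.22 and 8.29 (-1.79 ± 0.106).

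The other large falls had less in common. Platr8, a long noncoding RNA of pluripotent cells, fell by 2.09 on the log2 scale (SE 0.127), Slc27a2, a fatty acid transporter, by 1.79 (SE 0.087), and the cadherin gene Cdh9 stood at -1.77 ± 0.146. Lhx1, a LIM homeobox gene of the anterior mesendoderm, fell from 9.18, 9.14 and 9.28 to 7.58, 7.59 and 7.54 (-1.63 ± 0.099). Pilra fell by 1.60 (SE 0.155), the kinase gene Pim2 by 1.59 (SE 0.076), Irs4, an adaptor of insulin signalling, by 1.53 (SE 0.124), and Casq2, a calcium store protein, by 1.39 (SE 0.127). All 15 of the largest falls kept their call in each fit without 1 siPRMT1 array.

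The lists of other signalling pathways held a few large changes and medians near 0. Their counts are small, and 6.05% of all genes were called higher and 5.94% lower. In the Nodal list 1 of 12 was higher and 4 lower (median -0.11): Lefty1, a Nodal inhibitor, rose by 1.14 ± 0.073, Cer1, Smad7 (-0.45 ± 0.062) and Fst (-0.37 ± 0.065) fell, and Nodal (0.10), Lefty2 (-0.04) and Tdgf1 (0.01) were not called. In the BMP list 2 of 15 were higher and 4 lower (median -0.01), with Smad6 at 0.58 ± 0.083 and the antagonists Grem1 and Bmper at -0.53 ± 0.117 and -0.49 ± 0.078. The 6 calls became 3 without the third ATRA array, and the call of the other higher gene, Msx2, held in 1 of 6 fits without 1 array. In the Wnt list 2 of 14 were higher and 3 lower (median -0.03); Cdx1 and Lef1 have been given, Notum fell by 0.52 (SE 0.118), and the feedback gene Axin2 (-0.05) was not called.

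Lineage markers moved in both directions and mostly by little. For comparison, 6.05% of all genes were called higher and 5.94% lower. Among hindbrain and neural factors 2 of 20 were higher and 3 lower (median -0.0034), with Pax6, a gene of the neural tube and eye, at 0.99 ± 0.099, while Sox1 (0.06), Irx3 (0.10) and Olig2 (0.09) were not called. Without 1 array at a time 1 or 2 were higher and 1 to 3 lower, and the 5 calls became 3 without the third DMSO array and 2 without the third ATRA array. Primitive streak and mesendoderm genes were 2 higher and 2 lower of 17 (median -0.19): Wnt8a rose by 1.03 ± 0.114 and Wnt3a by 0.39 ± 0.087, and Lhx1 and Foxa2 (-0.33 ± 0.059) fell. Endoderm genes were 2 higher and 6 lower of 21 (median -0.20), with Gata6 at 0.45 ± 0.055 and Hnf4a and Ttr at -0.58 ± 0.067 and -0.56 ± 0.115. Trophectoderm genes were 0 higher and 3 lower of 11 (median 0.06), and 1 or 2 were lower without 1 array at a time. Epithelial genes were 1 higher and 3 lower of 12 (median -0.22), with Esrp1 at -0.65 ± 0.093 and Cdh1 at 0.20 ± 0.044.

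Markers of cells that a stem cell culture can also hold did not move together. Here too the shares over all genes were 6.05% higher and 5.94% lower. Fibroblast and feeder genes were 2 higher and 4 lower of 18 (median 0.05), and the mean log2 level over the list was 7.75 to 7.83 in the DMSO arrays and 7.80 to 7.92 in the ATRA arrays. Pdgfrb, a receptor of fibroblasts and mesenchyme, changed most at 1.20 ± 0.061, while Col1a1 (0.23), Col1a2 (0.04) and Twist1 (-0.03) were not called. The fall of Vim, among the 4 lower genes, was called in 0 of 6 fits without 1 array. Blood and endothelial genes were 2 higher and 2 lower of 11 (median -0.01), with Pecam1, also a stem cell surface protein, at 1.13 ± 0.067 and Gata1 at -0.56 ± 0.080. Without 1 array at a time 1 or 2 were higher and 1 was lower: the fall of Cdh5 was called in 0 of these 6 fits and the rise of Hbb-y in 1. After quantile normalization 2 of the 11 were called.

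Of the short stress and housekeeping lists, sterol synthesis and the reference genes held a smaller share of calls than the 12% over all genes, and the others a larger one; this was not tested. Cell cycle genes were 2 higher and 1 lower of 18 (median 0.02), with Ccnd2 at 0.50 ± 0.057 and Ccnd1 at -0.25 ± 0.056. The other counts, higher and lower in turn, were 2 and 2 of 11 for p53 targets, 3 and 0 of 12 for the integrated stress response, 2 and 4 of 18 for hypoxia and glycolysis, 2 and 1 of 13 for immediate early genes, and 0 and 1 of 12 for sterol synthesis. For Vegfa, 1 of the higher hypoxia genes, the call held in 0 of 6 fits without 1 array. Of 9 arginine methyltransferase genes 2, Prmt2 and Prmt8, were higher and 1, Prmt1, was lower. The call of Prmt2 held in 1 of 6 fits without 1 array, with a limma adjusted p of up to 0.165. It was also lost after quantile normalization, median centring and scaling to one SD. Prmt8 rose by 0.34 ± 0.080, a call lost after quantile normalization, while Carm1 (-0.07), Prmt5 (-0.08) and Prmt6 (-0.16) were not called. Of 9 reference genes 0 were called, and their changes ran from -0.09 to 0.06.

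**Figure D4:**
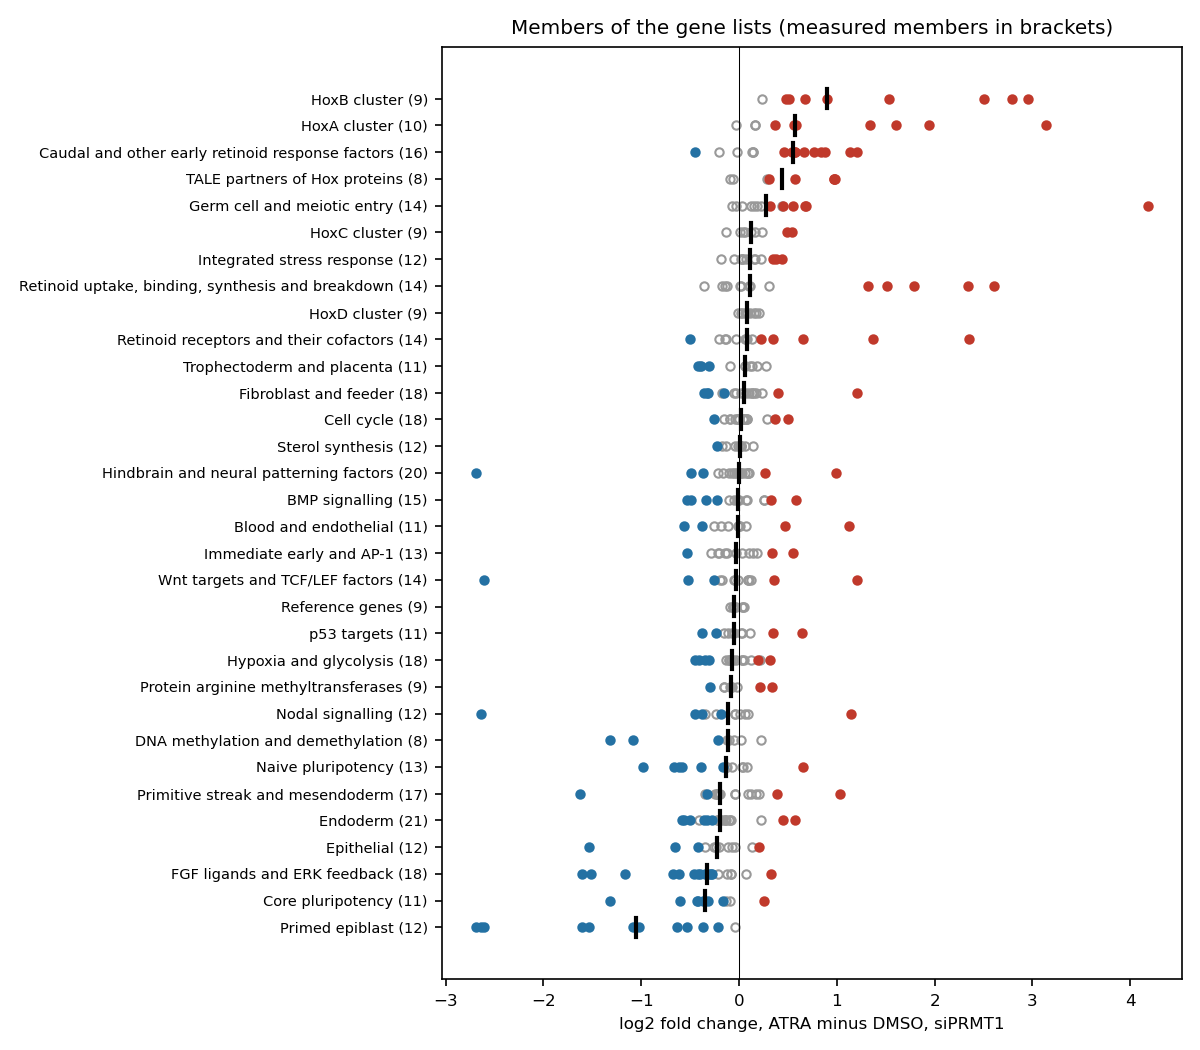
Log2 fold change of ATRA against DMSO in siPRMT1 (horizontal axis) for each measured member of 32 gene lists, filled red or blue where called higher or lower and open where not called, with a black bar at the list's median. The HoxB list has the highest median, 0.90, and the primed epiblast list the lowest, -1.05. The lists were chosen with earlier results of these data known.

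The same contrast in siSCR called 4663 genes (23.4%), but 63 of at least 2-fold. Both the number of calls and the spread were larger there: with only its own 6 arrays fitted, 544 genes were called. Of the siPRMT1 calls 1314, or 55.0%, were also called in siSCR in the same direction, which is 28.2% of the siSCR calls, and 36 were called in the opposite direction. Among the 138 genes changed 2-fold in siPRMT1, 121 were also called in siSCR in the same direction.

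The difference between the 2 responses was tested for each gene and called for 646 (3.24%), or for 135 when only the 12 DMSO and ATRA arrays were fitted, of which 134 were among the 646. Without ATRA replicate 3 of siPRMT1 897 genes were called, without any other siPRMT1 array 304 to 401, and without a siSCR array 558 to 827. The 6 siSCR arrays standing apart also had a narrower range of values. Their SD over genes was 1.981 to 2.075, against 2.149 to 2.274 in the other 18 arrays. With each array centred and scaled to one SD, 773 differences were called. The part that these 6 arrays and their narrower range have in the differences, and in the counts of larger responses below, was not tested. Of the 138 genes changed 2-fold in siPRMT1, 73 had a called difference (50 rises and 23 falls), and 49 of them in the smaller fit too. The response was larger in siPRMT1 for 72 of the 73, a direction that their choice favours. Of the 63 genes changed 2-fold in siSCR, whose choice favours the opposite, 15 had a called difference, 12 larger in siPRMT1 and 3 larger in siSCR.

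**Figure D5:**
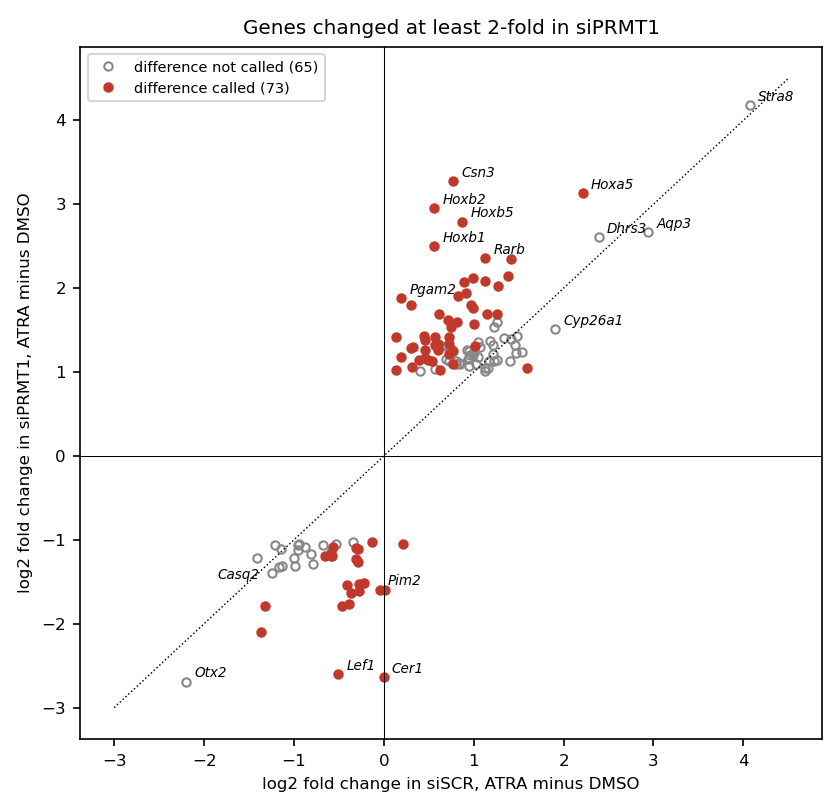
Log2 fold change of ATRA against DMSO in siPRMT1 (vertical axis) against siSCR (horizontal axis) for the 138 genes changed at least 2-fold in siPRMT1, filled where the difference between the lines was called. Stra8, Dhrs3, Aqp3 and Otx2 lie near the dotted line of equal change, while Hoxb1, Hoxb2, Hoxb5 and Csn3 lie above it and Cer1 and Lef1 below.

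The largest positive differences were those of Csn3 and 3 HoxB genes. Csn3 had log2 values in siPRMT1 of 5.95, 5.73 and 5.66 with DMSO and 9.06, 9.07 and 9.04 with ATRA, and in siSCR of 5.63, 5.56 and 5.68 and of 6.64, 6.48 and 6.06. The DMSO values of the lines overlapped and the ATRA values did not, a difference of 2.51 ± 0.188 (limma adjusted p = 8.33e-08, and 5.76e-05 with 12 arrays). Hoxb2 differed by 2.40 ± 0.163 and Hoxb1 by 1.94 ± 0.110 (adjusted p = 1.34e-05 for both with 12 arrays), and Hoxb5 by 1.92 ± 0.158. With DMSO, Hoxb1 stood at 7.70 in siPRMT1 and 8.12 in siSCR, and with ATRA at 10.21 and 8.68. Pgam2, a muscle phosphoglycerate mutase, and Epha7, an ephrin receptor, differed by 1.69 ± 0.134 and 1.49 ± 0.164, and neither was called in siSCR. Of the other Hox genes, Hoxa3, Hoxa4, Hoxa5 and Hoxb4 also differed in both fits, by 0.79 to 1.03.

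Retinoid genes were divided in this respect. Rarb rose by 1.22 ± 0.111 more in siPRMT1 than in siSCR, where its rise was 1.13 ± 0.079 (limma adjusted p of the difference 1.33e-06, and 0.00116 with 12 arrays). Stra6 (0.93 ± 0.102), Crabp2 (0.82 ± 0.117) and Cyp26b1 (0.75 ± 0.127) also differed in both fits. The difference of Dhrs3 was 0.22 ± 0.088 (adjusted p = 0.182) and that of Cyp26a1 -0.40 ± 0.138 (adjusted p = 0.129), and neither was called, nor was that of Nrip1 (0.19). Meis1, Meis2 and Pknox2 rose in siPRMT1 and were not called in siSCR, at 0.05, -0.13 and -0.09, and their differences of 0.92 ± 0.136, 1.12 ± 0.114 and 1.06 ± 0.158 were called in both fits.

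For 6 genes with large negative differences, Cer1, Lef1, Fgf5, Pilra, Pim2 and Cdh9, the DMSO level was higher in siPRMT1 than in siSCR. Cer1 had mean log2 levels with DMSO of 10.03 in siPRMT1 and 6.82 in siSCR, and with ATRA of 7.39 and 6.81. The responses differed by -2.64 ± 0.260 (limma adjusted p = 4.64e-06, and 0.000608 with 12 arrays). Lef1 went from 10.32 to 7.71 in siPRMT1 and from 7.93 to 7.42 in siSCR, a difference of -2.09 ± 0.083 (adjusted p = 2.89e-12). Fgf5 went from 10.34 to 8.74 and from 8.75 to 8.48, a difference of -1.33 ± 0.155. Pilra, Pim2 and Cdh9 differed by -1.61 ± 0.220, -1.55 ± 0.107 and -1.38 ± 0.206, from DMSO levels of 8.97, 10.79 and 8.88 in siPRMT1 and 6.47, 8.98 and 6.26 in siSCR. After ATRA the lines were closer for all 6 of these genes than with DMSO, which their choice by a negative difference favours. In siSCR with DMSO, Cer1, Pilra and Cdh9 lay below the medians of those arrays over all probe sets, 7.57 to 7.61. Their levels in undifferentiated siSCR cells were 6.37, 6.21 and 5.81. How far these genes could still fall in siSCR was not tested, so a small response there is not shown to be a lack of response. The levels of the lines are set side by side here without a test, since the siSCR arrays stand apart. Otx2 started higher in siPRMT1 too, at 11.59 against 10.17, but its difference of -0.49 ± 0.162 was not called (adjusted p = 0.11).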

How the data were processed

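Total RNA (RNeasy kit) was labelled from 300 ng for Affymetrix whole-transcript arrays, per the labels' protocols. The authors deposited log2 expression values per probe set and array, which ran from 2.14 to 14.55; their summarisation and normalization are not given in the sources used here, and the base of the log was inferred from this range. GEO's platform annotation gave 21789 of 35556 probe sets 1 gene symbol, 1621 several and 12146 none. For the 999 genes with several sets the brightest over all 24 arrays was kept, which left 19938 genes. No detection calls or probe sequences were used, so near-identical genes can share probes.

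One limma 3.58.1 fit in R 4.3.3 (lmFit, contrasts.fit, eBayes) took 8 group means over 24 arrays with 16 residual degrees of freedom, and its p-values were adjusted over all genes by Benjamini-Hochberg. Values after ± are its standard errors with 3 arrays per group (SE in brackets where the change is written as a fall), and 3 arrays per group set the precision, with a median SE of 0.0932. The fit was tested on simulated data. Equal replicate numbers did not pair the siPRMT1 samples, whose deviations correlated at 0.109, -0.484 and -0.502. Between unequal numbers the correlations ran from -0.438 (DMSO 2 with ATRA 1) to 0.573 (DMSO 2 with ATRA 3). Some samples of the 2 groups thus deviated together, and no fit took this into account.

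The text names Prmt1, the 15 largest rises and falls among called genes whose groups did not overlap, the 6 largest called differences in each direction among named symbols, and members of 32 gene lists. Clones, predicted genes and microRNAs were passed over. Members and lists were chosen with earlier results of these data known, and which list members to show was decided with their values in view.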

Additional observations from a re-analysis of the deposited data

Results flagged for a closer look

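The response to ATRA differed between siPRMT1 and siSCR, by the tested difference of the limma fit, for 67 of the genes named as large changes or list members. Values here are log2 fold changes in siPRMT1 minus those in siSCR, and all arrays share the limits given for the 6 siSCR arrays that stand apart. For 40 genes the difference was also called when only the 12 DMSO and ATRA arrays were fitted. On the positive side these were, among Hox genes and partners, Hoxb2 (2.40), Hoxb1 (1.94), Hoxb5 (1.92), Meis2 (1.12), Pknox2 (1.06), Hoxa3 (1.03), Hoxa5 (0.93), Meis1 (0.92), Hoxa4 (0.79) and Hoxb4 (0.79). Retinoid genes among them were Rarb (1.22), Stra6 (0.93), Crabp2 (0.82) and Cyp26b1 (0.75). The others were Csn3 (2.51), Pgam2 (1.69), Epha7 (1.49), Pmp22 (1.19), Calcoco2 (0.96), Gfra1 (0.76), Tmem229b (0.76) and Cntfr (0.59).

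On the negative side the genes called in both fits were Cer1 (-2.64), Lef1 (-2.09), Fgf5 (-1.33), Grhl2 (-1.13), Car14 (-0.89), Pou3f1 (-0.64), Dnmt3b (-0.52) and Dnmt3a (-0.45) of the epiblast list. Outside it they were Pilra (-1.61), Pim2 (-1.55), Cdh9 (-1.38), Foxd3 (-1.33), Fgf15 (-1.30), Lhx1 (-1.27), Irs4 (-1.25), Amn (-0.73), Gata1 (-0.70) and Pmaip1 (-0.59). Amn, part of the cubilin receptor of visceral endoderm, fell by 0.50 in siPRMT1 and was called higher in siSCR (0.24). Dnmt3a, Pmaip1, Pou3f1, Gata1 and Pilra also had positive estimates in siSCR. Their differences are therefore larger than their falls in siPRMT1, for Pilra by little.

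For the other 27 genes the difference was not called with only the 12 arrays. Positive differences were those of Chrna5 (1.13), Hoxa2 (0.74), Skida1 (0.72), Tgm2 (0.57), Hoxb3 (0.56), Pax6 (0.54), Hoxa6 (0.48), Id4 (0.48), Rec8 (0.42), Mdm2 (0.38), Fst (0.33), Bmp4 (0.33) and Vim (0.32). Negative ones were those of Platr8 (-0.73), Rxrg (-0.67), Prmt8 (-0.60), Apoa4 (-0.59), Dusp4 (-0.58), Fgf18 (-0.52), Fgf4 (-0.48), Slc27a2 (-0.46), Thy1 (-0.45), Fgf3 (-0.41), Prdm14 (-0.37), Prmt1 (-0.33) and Rarg (-0.33), as well as Nr5a2 (-0.32). For Fst, Bmp4, Id4, Vim, Rarg and Prmt8 the response in siPRMT1 was the smaller one.

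Among 13767 probe sets without a single gene symbol, which no comparison above used, 412 were called in siPRMT1 (2.99%), 140 higher and 272 lower, against 10.2% of sets with 1 symbol. Changes of at least 2-fold numbered 36. The largest called rises were those of sets 10544746 (2.72 ± 0.060) and 10434556 (2.53 ± 0.187), and the largest called falls those of 10428619 (-1.98 ± 0.144) and 10598062 (-1.43 ± 0.320).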

How the results depend on the processing

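The count for siPRMT1 ranged from 1737 to 1903 genes without 1 array at a time (910 to 1073 higher and 816 to 933 lower). With array weights it was 7640 (4150 higher and 3490 lower), and the cause was not tested. Under every other alternative run it was within 1.5 times 2391, from 2215 with arrays scaled to one SD to 3462 without the 6 siSCR arrays that stand apart. The siSCR count of 4663 was less stable: 544 with only its own 2 groups, 2855 with the 4 DMSO and ATRA groups, 1567 with array weights, and 3816 to 4675 without 1 array. The 646 differences became 135 with only the 4 groups and 304 to 897 without 1 array. These smaller fits estimate the spread from fewer arrays. So did a fit of the 2 siPRMT1 groups alone, in which 2995 genes were called. The median SDs between replicates with DMSO and ATRA were 0.118 and 0.137 in siSCR and 0.0626 and 0.0847 in siPRMT1. Their part in these counts was not tested. With the replicate number as a block, a replicate block, 2366, 4708 and 588 genes were called in turn. Equal numbers did not deviate together, so the block is given here only. No named result reversed its direction. Of 177 named genes called in siPRMT1, quantile normalization took the call from 15, scaling to one SD from 12 and median centring from 9. Of 1062 values without 1 array 128 lost the call. Values near the dim end of the arrays cannot be told from background here, and the simulated data had equal spread in all arrays, which the real arrays did not.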

Other observations

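Mycn, the MYC family gene of stem cells and progenitors, lies in no list above and was picked here after its values were seen. Its log2 values were 10.85, 10.95 and 10.93 with DMSO and 9.84, 9.73 and 9.78 with ATRA in siPRMT1, without overlap (-1.13 ± 0.059, limma adjusted p = 1.55e-11). In siSCR it fell by 0.95 (SE 0.059), and the difference of -0.18 was not called (limma adjusted p = 0.277).

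The miR-17 to miR-92 cluster, also picked after the data were seen, is a host transcript whose microRNAs restrain cell cycle inhibitors and cell death genes. The arrays read precursors and the host transcript, not mature microRNAs. Of its 5 measured precursors 0 were higher and 4 lower, with a median of -0.57, while over all 300 measured microRNA genes 1 was higher and 11 were lower. Mir20a fell by 0.57 (SE 0.129) and kept its call in all 6 fits without 1 array. Its mean log2 levels, 6.34 with DMSO and 5.77 with ATRA, lay below the lowest array median of the series, 7.465. Mir19b-1 (-0.63 ± 0.155) kept it in 5, Mir19a (-0.68 ± 0.199) in 3 and Mir18 (-0.54 ± 0.165) in 1, and Mir17 (-0.26) was not called. Mir17hg, the host, stood at -0.49 ± 0.145 and kept its call in 1. The mature sequences of the called members (RefSeq, GRCm38.p6) are shown to give their families, with the seed, bases 2 to 8, in capitals. The 2 miR-19 products share a seed, and those of miR-20a and miR-18a differ from it.
miR-19a-3p: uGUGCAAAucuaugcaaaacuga
miR-19b-3p: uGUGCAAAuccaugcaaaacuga
miR-20a-5p: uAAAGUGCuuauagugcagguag
miR-18a-5p: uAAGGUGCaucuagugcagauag

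The imprinted Dlk1 to Dio3 region was also picked after the data were seen. Of its 48 measured genes 0 were higher and 8 were lower, with a median of -0.10. Over all genes 6.05% were higher and 5.94% lower. Meg3, its maternally expressed noncoding RNA, went from 9.69, 9.70 and 9.64 to 8.70, 8.58 and 8.80 (-0.98 ± 0.127), and Dlk1 (-0.05) and Rtl1 (0.03) were not called. Of its 40 microRNA genes 5 were lower, against 11 of all 300 measured microRNA genes, these 5 included.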
